A study of Homo sapiens with 54 samples.

Results

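RH4 cells, a fusion-positive rhabdomyosarcoma line that carries the PAX3-FOXO1 fusion, were treated for 16 h with P3FI-90 or with its vehicle DMSO and profiled by scRNA-seq. P3FI-90 is an analog of the screening hit P3FI-63 and an inhibitor of histone lysine demethylases, and the study's methods give its dose here as 1 µM. Both groups were the same unmodified line in culture (genotype wt in the labels), and each was captured as 1 library, so no comparison between these 2 libraries has a replicate check and none has a test. The cells described here held from 8000 to under 16000 UMIs (unique molecular identifiers, each a counted RNA molecule), at least 200 detected genes and under 15% of UMIs from mitochondrial (MT-) genes. They were 3737 of 13516 DMSO barcodes (27.6%) and 3451 of 11415 P3FI-90 barcodes (30.2%), or 7188 of 24931 in all. The range was used because the libraries differed in depth, with a median of 8827 UMIs in all DMSO cells that passed the gene and MT- limits and 13255.5 in P3FI-90 cells. Within the range the medians were 11569 and 12291 UMIs, 3474 and 3482 genes, and 6.98% and 7.31% MT- UMIs.

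The labelled identity was checked first. Of 8 markers of a skeletal muscle-lineage tumor line, 7 were present at over 10 CPM in both libraries, where CPM is the gene's UMIs over all cells of a library, scaled to a total of 1000000 UMIs. They included MYOD1 at 340 CPM in DMSO and 280 CPM in P3FI-90, and the acetylcholine receptor subunit CHRNA1 at 379 and 359 CPM. MYF5 had no UMI in either library. Markers of blood, endothelial, epithelial, liver and fibroblast cells summed to 3.23 CPM in DMSO and 4.17 CPM in P3FI-90, and 7 of 13 were at 0 in each library. As 1 line was measured, no cell type that lacks a gene was present to read free RNA from, and its part in the shares of cells below was not tested. The libraries shared 34 barcodes, 5 of them between cells of the range.

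Many of the genes with the highest ratios in P3FI-90 cells are linked to the integrated stress response. In this response, shortage of amino acids, misfolded protein in the endoplasmic reticulum or other stresses lead to phosphorylation of the initiation factor eIF2. General translation then slows while the transcription factor ATF4 is translated more, and ATF4, with partners of the C/EBP family, raises transcription of genes for amino acid synthesis and uptake, tRNA charging and feedback. DDIT3, also called CHOP, is the best known of its targets and is linked to cell death when the stress lasts. ATF4 with a C/EBP partner binds composite sites whose core has the letters TGATGNAA.

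Promoters of the leading genes were read for that core on both strands, from 250 bases before to 50 after each start, as RefSeq gives them on GRCh38.p14. Matches were found in 2 of the 13 genes that were at least 2-fold higher in P3FI-90 cells (15.4%), beside 3.67% of the 27305 promoters in the table. The promoters of these genes, ASNS at chr7:97872359-97872658 on the minus strand and HERPUD1 at chr16:56931892-56932191 on the plus strand, are shown 5′ to 3′ with the match in capitals. The ASNS match begins 68 bases before the start, and that of HERPUD1 lies 176 bases before it and reads as the core on the opposite strand.
ASNS: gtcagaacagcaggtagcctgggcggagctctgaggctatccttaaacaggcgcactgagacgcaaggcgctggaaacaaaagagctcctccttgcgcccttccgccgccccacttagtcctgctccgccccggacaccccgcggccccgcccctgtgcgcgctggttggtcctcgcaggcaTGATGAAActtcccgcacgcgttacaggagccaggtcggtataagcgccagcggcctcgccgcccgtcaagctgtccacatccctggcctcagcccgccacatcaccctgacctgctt
HERPUD1: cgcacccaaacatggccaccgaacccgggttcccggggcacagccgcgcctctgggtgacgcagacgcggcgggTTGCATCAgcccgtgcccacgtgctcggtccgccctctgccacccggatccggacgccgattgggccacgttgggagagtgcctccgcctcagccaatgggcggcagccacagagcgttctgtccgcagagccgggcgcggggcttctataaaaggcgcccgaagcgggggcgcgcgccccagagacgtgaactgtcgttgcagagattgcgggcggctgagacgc

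Among 19 regulators of the ATF4 pathway, 16 had a promoter in the table and 3 of these held the core (18.8%), and 3 of 10 promoters of amino acid transporters did. So did 3 of 10 promoters of amino acid and one-carbon synthesis enzymes, those of ASNS, MTHFD1L and GOT1. The log2 ratios of these genes, P3FI-90 to DMSO, were 1.57, 0.16 and 0.15. For comparison, 1 of 45 promoters of G2 and mitosis genes held the core (2.22%). The matches in the 3 regulators and 3 transporters are shown with the core in capitals and 10 bases on either side, except for SLC3A2, whose window is cut at the end of the promoter. They lie on GRCh38.p14, on the plus strand for ATF3 at chr1:212565206-212565233, CHAC1 at chr15:40953252-40953279, FGF21 at chr19:48755460-48755487 and SLC3A2 at chr11:62881726-62881748, and on the minus strand for SLC7A1 at chr13:29595664-29595691 and SLC38A1 at chr12:46266503-46266530. In CHAC1, FGF21 and SLC3A2 the capitals are the core as read on the opposite strand.

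ATF3: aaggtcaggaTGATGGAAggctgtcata
CHAC1: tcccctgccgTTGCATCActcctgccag
FGF21: aacaccaggaTTGCATCAgggaggagga
SLC3A2: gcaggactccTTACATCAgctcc
SLC7A1: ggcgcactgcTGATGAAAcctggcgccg
SLC38A1: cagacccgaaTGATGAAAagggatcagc

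The other motifs searched, ACGTG of hypoxia-responsive sites and TGCNCNC of metal-responsive sites, were in 4 and 8 of the 13 promoters (30.8% and 61.5%), beside 21.6% and 55.2% of all promoters. Of the 7937 genes compared below, from which the 13 were drawn, 6116 had a promoter in the table and the rest had none. Of the 6116, 1.59%, 28.4% and 63.4% held TGATGNAA, ACGTG and TGCNCNC. Beside these shares, ACGTG and TGCNCNC were about as common in the 13 promoters. A match describes letters and not a bound site, and promoters without one, such as that of DDIT3, only lack these letters in this window.

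At matched depth, 13 of 7937 genes whose mean over both libraries reached 10 CPM were at least 2-fold higher in P3FI-90 cells (0.164%) and 4 were at least 2-fold lower (0.0504%). Of the 13, 7 were ATF4 pathway regulators and 9 belonged to the lists of amino acid and protein stress genes, which together held 72 of the genes compared. The lists were chosen with earlier results of these data known, so this overlap is not independent support. The median of all genes was a log2 ratio of -0.06, with 4964 genes below equality (62.5%), a share against which the counts of list members below equality are to be read. At 1.5-fold, 52 genes were higher (0.655%) and 109 were lower (1.37%). The boundary of the 2-fold call ran between ANKRD1 at a log2 ratio of 1.08 and SLC3A2 at 0.97 on the high side, and between DUSP6 at -1.05 and CCNF at -0.99 on the low side. SESN2, ARRDC3 and CREBRF, and SLC7A11, GPT2 and others past 1.5-fold, were below 10 CPM in DMSO and entered through their level in P3FI-90 cells. RP11-879F14.2 and PIK3R3 entered through theirs in DMSO cells.

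**Figure D1:**
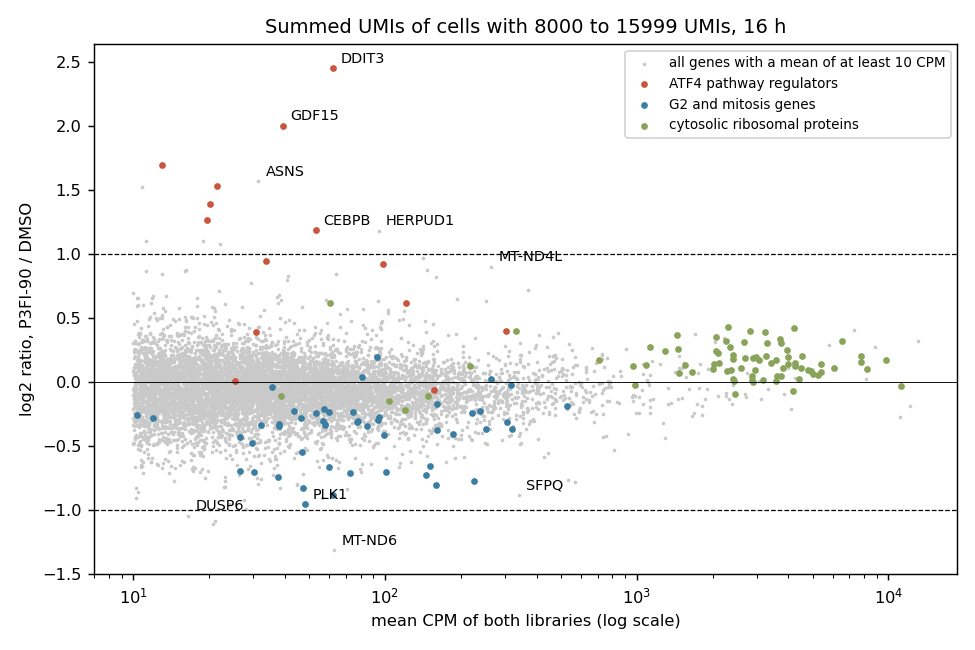
Each point is a gene with a mean of at least 10 CPM, with the mean of both libraries in CPM (log axis) against the log2 ratio of P3FI-90 to DMSO, and dashed lines mark 2-fold. ATF4 pathway regulators reach a log2 ratio of 2.45, most G2 and mitosis genes lie below 0 and ribosomal protein genes lie slightly above 0.

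DDIT3 had the largest ratio. It was at 19.2 CPM in DMSO and 105 CPM in P3FI-90 cells, 5.48-fold higher (95% interval of the ratio 5.09 to 5.90; here and below, intervals of ratios and shares are exact binomial ones and cover counting error only). With every cell thinned to 8000 UMIs, 13.1% of DMSO cells and 40.5% of P3FI-90 cells had a DDIT3 UMI, and without thinning 17.8% and 48.6% had one. Cells with 2 or more DDIT3 UMIs of 8000 were 1.74% and 19.8%, and cells with 5 or more were 0.0268% and 3.94%. Both the share of cells with the transcript and the copies counted per cell were thus higher. A higher mean raises both, so more expressing cells and more copies per cell were not told apart.

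Other signalling and feedback members of the pathway followed. GDF15, a secreted stress cytokine, was at 15.7 CPM in DMSO and 63.0 CPM in P3FI-90 cells (4.01-fold, 3.68 to 4.37), in 10.5% and 31.9% of cells at 8000 UMIs and in 14.1% and 40.05% as counted. SESN2 and DDIT4, both inhibitors of the mTORC1 growth kinase, were 3.24-fold (2.82 to 3.73) and 2.90-fold (2.61 to 3.22) higher. TRIB3, a pseudokinase that feeds back on ATF4 and DDIT3, was at 11.2 and 29.3 CPM (2.62-fold, 2.36 to 2.92). PPP1R15A, the GADD34 subunit that directs dephosphorylation of eIF2, was at 68.3 and 129 CPM, a log2 ratio of 0.92. EIF4EBP1, a repressor of cap-dependent translation and the most abundant member, was at 260 and 343 CPM, a smaller ratio than those of the other 5.

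The transcription factors of the pathway had graded ratios. CEBPB was at 32.4 CPM in DMSO and 73.7 CPM in P3FI-90 cells (2.27-fold, 2.13 to 2.42) and in 21.8% and 38.7% of cells at 8000 UMIs. JDP2, a repressor of AP-1 sites, was 2.41-fold higher (2.17 to 2.68), and CEBPG, a partner of ATF4, had a log2 ratio of 0.95. ATF4 itself was at 95.5 and 146 CPM, 1.53-fold higher (1.47 to 1.59), although control of ATF4 is best known at translation, which UMIs do not measure. ATF3 and ATF5, relatives of ATF4, had log2 ratios of 0.39 and 0.01. Over the 14 members compared, the median log2 ratio was 1.07, and STC2 at -0.07 was the lowest. Of them, 7 were at least 2-fold and 10 at least 1.5-fold higher, beside 0.164% and 0.655% of all genes. The summed level of all 19 members was 779 CPM in DMSO and 1264 CPM in P3FI-90 cells. Members below a mean of 10 CPM were CHAC1 at 0.916 and 8.46 CPM, INHBE at 2.497 and 9.98 CPM, NUPR1 at 4.74 and 12.8 CPM, VLDLR at 4.49 and 6.07 CPM, and FGF21, which had no UMI in DMSO cells.

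**Figure D2:**
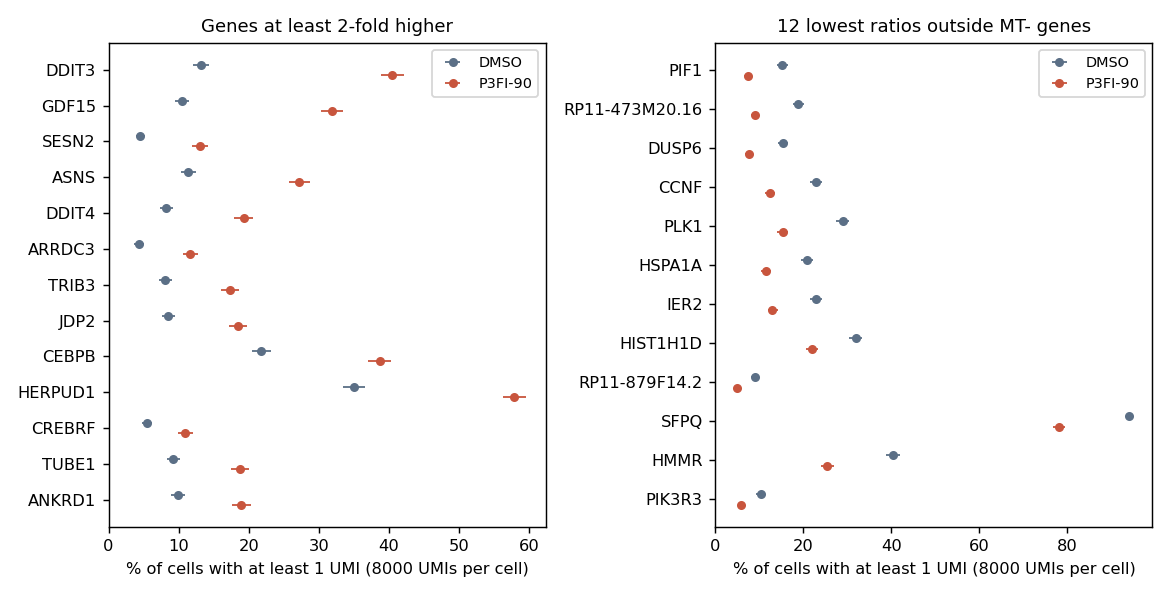
Percent of cells with at least 1 UMI of each gene after thinning every cell to 8000 UMIs, in DMSO (grey) and P3FI-90 (red), with bars for exact 95% binomial intervals. DDIT3 is in 13.1% and 40.5% of cells, and on the right SFPQ is in 94.2% and 78.3%.

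Genes that ATF4 is known to switch on for amino acid supply were higher to a lesser degree. ASNS, asparagine synthetase, was at 15.9 CPM in DMSO and 46.99 CPM in P3FI-90 cells (2.96-fold, 2.72 to 3.24). It was detected in 11.4% and 27.2% of cells at 8000 UMIs. PSAT1 of serine synthesis was at 45.9 and 82.3 CPM, and MTHFD2 of mitochondrial one-carbon metabolism at 116 and 204 CPM, log2 ratios of 0.84 and 0.82. Of the 12 synthesis enzymes compared, 4 were at least 1.5-fold higher and none was at least 1.5-fold lower, with a median of 0.32. Of all genes, 0.655% and 1.37% were. The 4 include GPT2, at 7.65 CPM in DMSO and 12.4 CPM in P3FI-90 cells, which reached the mean of 10 CPM only through P3FI-90 cells. PSPH, the last step of serine synthesis, was at -0.17 while PHGDH, the first, was at 0.58, so the steps of that pathway did not share 1 ratio.

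Among 8 amino acid transporters compared, the median log2 ratio was 0.28 and the highest was SLC3A2 at 96.2 and 188 CPM. SLC3A2 is the heavy chain that pairs with SLC7A11, the cystine carrier, and SLC7A5, the leucine carrier, which had log2 ratios of 0.66 and 0.11. SLC7A11, at 8.06 and 12.7 CPM, ran from 0.16 to 0.73 over 13 alternative choices of cells and scaling. SLC7A1, a carrier of cationic amino acids, and SLC38A1, a carrier of glutamine, had log2 ratios of 0.45 and 0.12. Cytosolic aminoacyl-tRNA synthetases, which charge tRNAs, ranged from VARS at -0.33 to CARS at 0.64 with a median of 0.11 over 20 genes. CARS, GARS, SARS and AARS were at the top of that list and VARS and FARSA at its end.

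Folding stress in the endoplasmic reticulum was the other arm examined. HERPUD1, which serves disposal of misfolded proteins, was at 57.7 CPM in DMSO and 131 CPM in P3FI-90 cells (2.27-fold, 2.17 to 2.38), and CREBRF, a negative regulator of CREB3 in that response that is not in the list, was 2.15-fold higher (1.87 to 2.47). In the list itself, the co-chaperone DNAJB9 and the transcription factor XBP1 had log2 ratios of 0.77 and 0.54. The large chaperones sat near equality, with HSP90B1 at 781 and 770 CPM, CALR at 759 and 733 CPM and PDIA6 at 679 and 665 CPM. Over the 18 genes the median was 0.01, and 9 lay above 0 and 9 below. Heat shock chaperones were lower instead, all 12 compared having ratios below equality, beside 62.5% of all genes, with a median of -0.27. HSPA1A was at 31.8 and 16.4 CPM and HSPA8 at 847 and 629 CPM, and HSPA1A shares nearly all of its sequence with HSPA1B, so their counts are uncertain. The remaining genes past 2-fold, ARRDC3, an arrestin-like regulator of receptor turnover, TUBE1, the epsilon tubulin, and ANKRD1, a muscle ankyrin repeat protein, were 2.87-fold, 2.15-fold and 2.11-fold higher and belonged to none of the 30 lists.

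Other stress programs showed small differences. NRF2 targets of the oxidative response had a median log2 ratio of -0.06 over 13 genes, the same as all genes, and HIF targets outside glycolysis had 0.04 over 7. Glycolysis genes had -0.14 over 14 and sterol and fatty acid genes -0.07 over 20. The metallothionein MT2A was at 710 and 809 CPM, and the 3 metallothionein and zinc response genes compared had log2 ratios from -0.17 to 0.47. Among p53 targets the median was -0.05 over 12 genes, with 4 above equality and 8 below, beside 62.5% of all genes below. CDKN1A was at 25.2 and 25.8 CPM and MDM2 at 58.7 CPM in both libraries. GADD45A, which ATF4 also controls, had the highest ratio, at 151 and 236 CPM, and AEN the lowest, a log2 ratio of -0.44. Of 8 BCL2 family and death receptor genes compared, PMAIP1, which encodes the BH3-only protein NOXA, was at 29.8 and 51.6 CPM and the pro-survival gene MCL1 at 71.1 and 57.6 CPM. TNFRSF10B, the TRAIL receptor that DDIT3 is known to raise, was at 24.7 and 25.3 CPM.

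Counted cell by cell, the ATF4 pathway difference was a shift of most cells with a long upper tail. At 8000 UMIs, DMSO cells had a median of 6 UMIs of the 19 regulators and P3FI-90 cells a median of 9. The 95th percentile was 12 UMIs in DMSO and 22 in P3FI-90. The share of cells above the DMSO 95th percentile was 3.91% in DMSO and 28.3% in P3FI-90, so most P3FI-90 cells remained within the DMSO range. For the synthesis enzymes the medians were 5 and 7 UMIs, with 3.08% and 14.3% of cells above the DMSO 95th percentile.

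**Figure D3:**
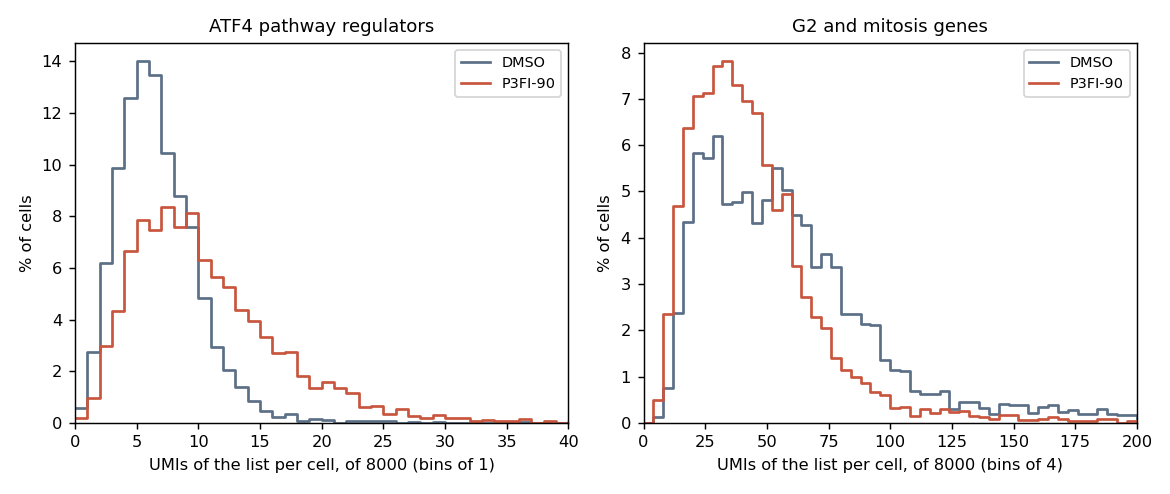
Percent of cells (vertical axis) by the number of UMIs of the list per cell after thinning to 8000 UMIs (horizontal axis), for ATF4 pathway regulators and for G2 and mitosis genes, in DMSO (grey) and P3FI-90 (red). The medians are 6 and 9 UMIs for the first list and 53 and 39 UMIs for the second.

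Pathway members also went together within the P3FI-90 library. Cells with a DDIT3 UMI (1396) had on average 11.1 UMIs of the other ATF4 pathway regulators, and cells without one (2055) had 8.06. In DMSO the same split gave 6.57 UMIs in 491 cells and 6.01 UMIs in 3246 cells. P3FI-90 cells without a DDIT3 UMI thus still lay above DMSO cells on average. HERPUD1 averaged 1.45 UMIs in P3FI-90 cells with DDIT3 and 0.802 in those without, and ASNS 0.506 and 0.294. Across cells, Spearman's rho between the UMIs of the ATF4 pathway regulators and those of the synthesis enzymes was 0.134 in DMSO (3737 cells) and 0.441 in P3FI-90 (3451 cells), and that with tRNA synthetases was 0.183 and 0.361. These are descriptions of cells of 1 library each, all at 8000 UMIs, and a list with more UMIs allows a higher rho.

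Genes of G2 and mitosis were the clearest group on the low side. Of 53 compared, 50 had ratios below equality, beside 62.5% of all genes, with a median log2 ratio of -0.34. At least 1.5-fold lower were 14 of them, beside 1.37% of all genes. Summed over the list the level was 7427 CPM in DMSO and 5666 CPM in P3FI-90 cells. Over the 6 ranges of depth, from shallow to deep, this sum had ratios of 0.86, 0.79, 0.75, 0.76, 0.82 and 0.88. The lowest were those of the matched range. Cells with 4000 to under 8000 UMIs were 20.6% of DMSO and 8.77% of P3FI-90 cells that passed the gene and MT- limits. Those with 16000 to under 32000 were 19.2% and 30.9%. The matched range thus took different parts of the libraries, and whether this changed the mix of cell cycle phases was not tested. PLK1, a mitotic kinase, was at 63.8 CPM in DMSO and 32.8 CPM in P3FI-90 cells, 1.94-fold lower (ratio 0.515, 0.482 to 0.549), and in 29.0% and 15.3% of cells at 8000 UMIs or 35.5% and 20.3% as counted. HMMR, a spindle protein, was at 80.9 and 43.9 CPM. CDK1 at 86.6 and 98.7 CPM went the other way. S phase genes had a median of -0.09 over 40, with TYMS at 483 and 591 CPM and FEN1 at 97.1 and 74.6 CPM.

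Per cell, the median of G2 and mitosis UMIs was 53 in DMSO and 39 in P3FI-90, and 4.90% and 1.94% of cells lay above the DMSO 95th percentile of 135 UMIs. Cells at or below the DMSO median made up 51.4% of DMSO cells and 72.4% of P3FI-90 cells. Within that lower part the log2 ratio was -0.50 for PLK1 and -0.56 for PIF1, a helicase gene outside the list, and above the DMSO median it was -0.34 and -0.55, so the ratios were nearer to equality once cells were split. The split was made on UMIs of a list that holds PLK1. The ATF4 pathway regulators had a median of 1.09 in the lower part and 1.06 in the upper, and DDIT3 had log2 ratios of 2.42 and 2.72, close to those of all matched cells.

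Of the other genes with the lowest ratios, several are outside the cell cycle lists. PIF1 was at 28.5 and 13.1 CPM, and CCNF, the F-box cyclin, at 37.5 and 18.8 CPM. In DMSO cells at or below the DMSO median of G2 and mitosis UMIs, PIF1 was at 6.71 CPM and CCNF at 14.8 CPM. In that part CCNF had a log2 ratio of -0.34, against -0.995 in all matched cells. A place outside the lists thus does not separate PIF1 and CCNF from the cell cycle. SFPQ, a paraspeckle and splicing protein, was at 442 CPM in DMSO and 239 CPM in P3FI-90 cells (1.85-fold lower, ratio 0.529 to 0.555). It was detected in 94.2% and 78.3% of cells at 8000 UMIs and in both parts of the split by G2 and mitosis UMIs its log2 ratio was close, at -0.75 and -0.79. DUSP6, the phosphatase that restrains ERK, was at 22.4 and 10.8 CPM, whereas SPRY1, another ERK feedback gene, was at 73.3 and 87.4 CPM. IER2, an immediate early gene, was at 35.9 and 19.0 CPM, PIK3R3, a PI3-kinase regulatory subunit, at 13.5 and 7.42 CPM, and HIST1H1D, a linker histone, at 73.3 and 39.0 CPM. The non-coding RP11-473M20.16 was at 28.8 and 13.5 CPM and RP11-879F14.2 at 13.4 and 7.14 CPM. Of 10 tubulin genes, 8 had ratios below equality, near the 62.5% of all genes. TUBB4B, which the G2 and mitosis list also holds, was at 722 and 418 CPM, and TUBB was at 1460 and 1570 CPM.

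The lineage genes of the tumor line had modest ratios. PAX3-FOXO1 target genes had a median log2 ratio of -0.18 over 20, with 16 below equality, beside -0.06 and 62.5% for all genes. MYCN was at 15.1 CPM in DMSO and 9.67 CPM in P3FI-90 cells, a log2 ratio of -0.64 and the lowest of the list, FGFR4 was at 219 and 189 CPM, and ASS1 at 416 and 478 CPM was the highest in ratio. PAX3 was at 18.3 and 10.7 CPM and FOXO1 at 41.0 and 31.9 CPM, and because these UMIs come from 3′ ends, transcripts of the fusion fall under FOXO1 and not PAX3. MYOD1 was at 340 and 280 CPM and MYOG, which marks differentiation, at 120 and 128 CPM. Contractile genes had a median of -0.13 over 21, with TTN at 863 and 642 CPM and DES at 270 CPM and 271 CPM. No gene of these 3 lists was past 2-fold.

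The enzymes that P3FI-90 acts on were near equality in RNA. KDM3B was at 41.4 CPM in DMSO and 37.9 CPM in P3FI-90 cells (ratio 0.856 to 0.981), KDM1A at 108 and 91.7 CPM, KDM4B at 17.2 and 15.0 CPM, KDM5A at 69.5 and 66.1 CPM, and KDM6B at 22.1 and 20.1 CPM. The largest difference of the 15 lysine demethylases compared was that of KDM5B, at 22.1 and 16.0 CPM. The median of the list was -0.10.

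Among abundant housekeeping groups, ribosomal protein genes took 24.2% of UMIs in DMSO cells and 26.8% in P3FI-90 cells. Of these genes, 71 of 80 were above equality, beside 2973 of all 7937 genes, with a median log2 ratio of 0.14. Nuclear genes of the respiratory chain had a median of 0.10 over 30, and proteasome subunits -0.12 over 28. Mitochondrial transcripts differed among themselves, from MT-ND6 at 89.8 and 36.1 CPM, a log2 ratio of -1.32 and the lowest of all genes, to MT-ND4L at 184 and 343 CPM. MT-ND6 is the mRNA that the light strand of the mitochondrial genome encodes, and MT-ND4L shares a transcript with MT-ND4, which was at 6242 and 8286 CPM. When the MT- and ribosomal protein genes were left out of the total, the median of all genes was 0.002 in place of -0.06, and every sign given for the 12 highest and 12 lowest genes was kept.

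The 12 genes with the highest ratios kept their sign in all 13 alternative choices of cells and scaling, and 11 of them stayed at least 2-fold higher in all 13. The exception was CREBRF, past 2-fold in 10. These choices did not include the shallowest and the deepest range, and in cells with 32000 UMIs and over TUBE1 had a log2 ratio of 0.86. Over ranges of depth DDIT3 ran from a log2 ratio of 2.84 in cells with 4000 to under 8000 UMIs to 2.07 in cells with 32000 and over. The ratios on the low side were less even. In cells with 16000 to under 32000 UMIs no gene was 2-fold lower, PIF1 had a log2 ratio of -0.49 and PLK1 of -0.46, and in the deepest cells these were -0.16 and -0.20, while SFPQ stayed between -0.65 and -1.01 in all 6 ranges.

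**Figure D4:**
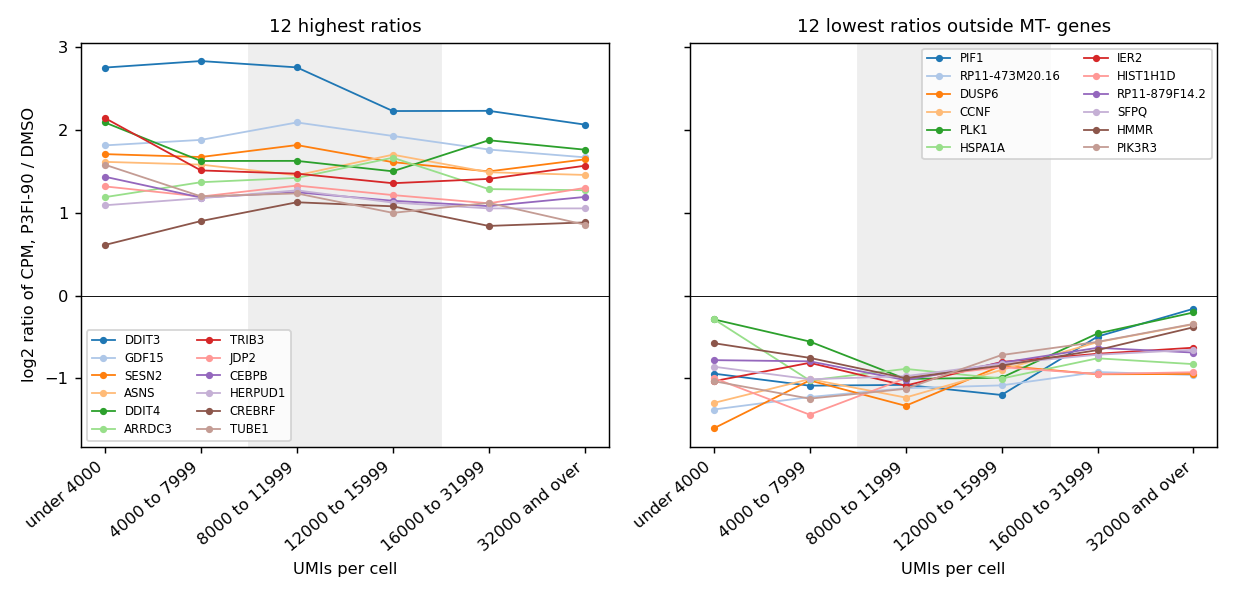
Log2 ratio of CPM, P3FI-90 to DMSO, of the 12 genes with the highest and the 12 with the lowest ratios in 6 ranges of UMIs per cell, with the matched range shaded. The highest genes stay above 0.6 in each range, and several of the lowest, PIF1 and PLK1 among them, approach 0 in the deepest cells.

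Bulk RNA-seq of RH4 cells at 24 h compared P3FI-90 with DMSO in more than 1 library a group. It was not used in the rule for the cells or in the 2-fold calls. It held 3 DMSO and 3 P3FI-90 libraries, numbered 1, 3 and 4. P3FI-90 numbers 3 and 4 were treated at 1 µM. The title of P3FI-90 number 1 reads "lo" without a dose, so whether its dose was the same is not known. Counts over 3 pairs and the fits below include it. Values are TPM. The study's methods speak of biological triplicates without saying which libraries they are. Of 12332 genes tested with limma, 1 was higher after P3FI-90 at an adjusted p under 0.05 (0.00811%) and none was lower, with 110 higher and 134 lower at an unadjusted p under 0.05. With the replicate number as a block, 3 genes were higher and none was lower.

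The 1 gene was TRIB3, at 22.1, 25.7 and 25.5 TPM in DMSO and 129, 242 and 279 TPM in P3FI-90 libraries. The groups were far apart, with a log2 fold change of 3.03 ± 0.29 (SE, n = 3 and 3) and a limma adjusted p of 0.0183, or 0.0149 with the block. This call was lost under 9 of 13 alternatives, 7 of which left out 1 of the 8 libraries of the fit, the exception being P3FI-90 number 1 (limma adjusted p 0.00403 to 0.185 over the 13). DDIT3 was at 16.0, 52.9 and 20.2 TPM in DMSO and 132, 375 and 218 TPM after P3FI-90, and again no DMSO library reached the lowest P3FI-90 one. Its log2 fold change was 3.04 ± 0.47 (SE), with a limma adjusted p of 0.426 without and 0.0435 with the replicate block. The third gene under the block was CXCL8, an inflammatory chemokine, at a limma adjusted p of 0.0238, which had 20 UMIs in DMSO and 5 in P3FI-90 among the matched cells at 16 h.

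All 13 genes at least 2-fold higher in single cells were also higher in 3 of 3 same-numbered bulk pairs, beside 17.8% of all genes tested, and their median bulk log2 fold change was 1.49 against -0.08 for all genes. The groups did not overlap for 11 of them, beside 4.21% of all genes higher in that way. ASNS was at 34.2, 53.5 and 39.4 TPM in DMSO and 118, 218 and 249 TPM after P3FI-90. GDF15 was at 8.82, 20.2 and 12.2 TPM in DMSO and 21.1, 131 and 132 TPM after P3FI-90, so its lowest P3FI-90 library was close to the highest DMSO one. Of the 49 tested genes at least 1.5-fold higher in single cells, 43 were higher in all 3 pairs. INHBE and NUPR1, too low for the single-cell comparison, had bulk log2 fold changes of 2.999 and 2.53.

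Of all 12332 genes tested in bulk, 17.8% were higher and 35.5% were lower in all 3 pairs. By group, 16 of 18 ATF4 pathway regulators tested in bulk were higher in all 3 pairs and none was lower in all 3, with a median log2 fold change of 1.38. For synthesis enzymes it was 9 of 14 with a median of 0.57, for transporters 8 of 10 with 0.48, and for tRNA synthetases 13 of 20 with 0.27. Genes for endoplasmic reticulum chaperones and the unfolded protein response, which sat at 0.01 in single cells at 16 h, had a bulk median of 0.26 at 24 h, with 16 of 18 higher in all 3 pairs. HSPA5, the BiP chaperone, was at 805, 734 and 650 TPM in DMSO and 1127, 1478 and 1177 TPM after P3FI-90. The difference between the times was not tested, since the assays differ. In each of these lists the genes past the adjusted threshold were at most TRIB3 without the block, and TRIB3 and DDIT3 with it.

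On the low side, 85 of 98 tested genes at least 1.5-fold lower in single cells were lower in all 3 bulk pairs, beside 35.5% of all genes. No gene of this side passed the adjusted threshold. SFPQ was at 302, 350 and 302 TPM in DMSO and 233, 186 and 147 TPM after P3FI-90, and CCNF at 35.8, 40.6 and 42.0 TPM and 24.98, 21.6 and 20.9 TPM, without overlap of the groups, as for 7.73% of all genes. DUSP6 and IER2 were not lower in all pairs, and the RP11- and MT- genes were not analysed in bulk. G2 and mitosis genes were lower in all 3 pairs for 47 of 54 with a median of -0.43, and S phase genes for 36 of 41 with a median of -0.47. PAX3-FOXO1 target genes were lower in all 3 pairs for 20 of 27 with a median of -0.29, among them MYCN at 36.0, 36.5 and 29.8 TPM in DMSO and 20.9, 25.2 and 18.5 TPM after P3FI-90.

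**Figure D5:**
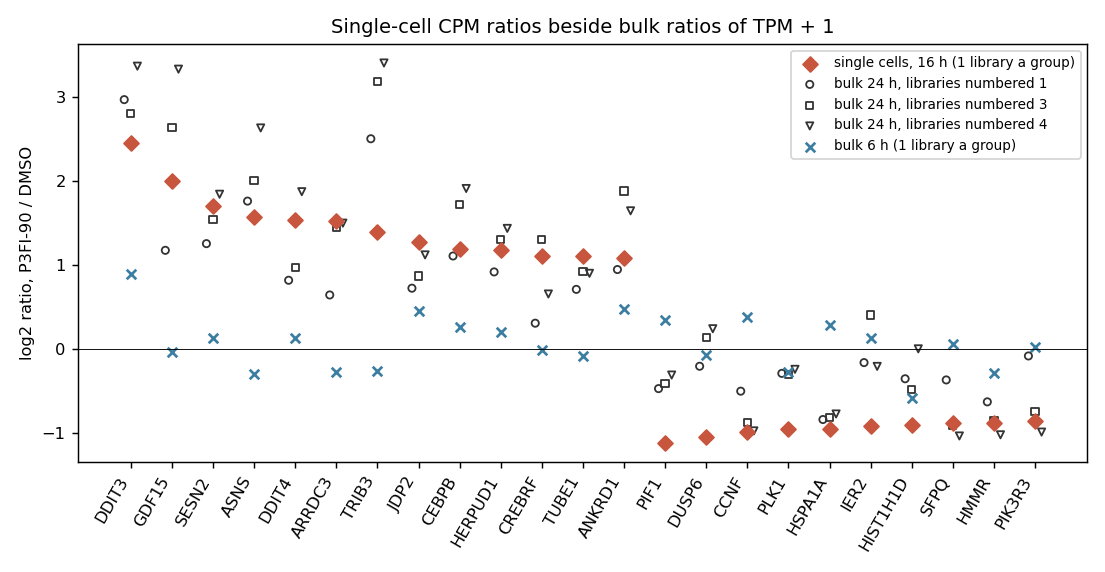
Log2 ratio of P3FI-90 to DMSO for the genes at least 2-fold higher and the lowest-ratio genes of the single cells (filled diamonds, 16 h), in bulk RNA-seq at 24 h for the libraries numbered 1, 3 and 4 (open symbols, TPM + 1) and in bulk at 6 h (crosses). The 13 genes on the left lie above 0 in all 24 h pairs, and at 6 h only DDIT3 among them lies above 0.5.

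At 6 h there was 1 bulk library of each treatment and no test, and the title of the P3FI-90 library also reads "lo" without a dose. DDIT3 was at 20.6 TPM in DMSO and 39.2 TPM after P3FI-90, while TRIB3 was at 28.8 and 23.9 TPM and ASNS at 66.0 and 53.5 TPM. None of the 13 genes was past 2-fold at 6 h on the log2(TPM + 1) scale. P3FI-63, given at 10 µM for 24 h, had 484 and 557 TPM of DDIT3 in its 2 libraries. HSPA1A was at 6.88, 9.58 and 10.4 TPM after P3FI-90 and at 398 and 2864 TPM after P3FI-63, with 13.1, 17.6 and 18.6 TPM in DMSO. The doses of the compounds differed, so these values are given side by side and no comparison was made.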

How the data were processed

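Single-cell libraries were made by the authors with the 10x Chromium 3′ v3.1 kit, and the deposited UMI counts per gene and cell are Cell Ranger 6.1.2 output on hg19, per the labels and the study's methods, without normalization. Cells with 8000 to under 16000 UMIs, at least 200 genes and under 15% MT- UMIs were kept, their counts summed per library (43659214 and 42181109 UMIs) and scaled to CPM, and genes with a mean of at least 10 CPM compared as ratios. With 1 library a group there was no test. Shares of cells were taken after thinning each cell to 8000 UMIs. Scrublet (scanpy 1.11.5) marked 0 and 1 cells as doublets and so did not work. The study removed doublets before its clustering, and none was removed here.

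For bulk RNA-seq the authors deposited TPM made with STAR and RSEM, a unit that keeps no depth. DMSO, P3FI-90 and P3FI-63 libraries at 24 h (3, 3 and 2) were fitted jointly on log2(TPM + 1). Genes averaging 1 TPM or more entered limma 3.58.1 (R 4.3.3) with an intensity trend, and p-values received the Benjamini-Hochberg adjustment. Fold changes on this scale understate those of low genes. Same-numbered DMSO and P3FI-90 libraries deviated together from their group means (correlations 0.571, 0.575 and 0.643), so the numbers were taken to pair them.

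Members and the 30 gene lists were chosen with earlier results of these data known. Named genes are the 12 highest and 12 lowest ratios outside MT- genes, the most abundant and most different members of each list and 12 genes the study names. ANKRD1 and others mentioned to complete a list were named after their values were seen. Scripts were tested on simulated data.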

Additional observations from a re-analysis of the deposited data

Results flagged for a closer look

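Barcodes with 15% or more of MT- UMIs, left out above, held the same contrast. In 966 such barcodes of DMSO and 949 of P3FI-90, DDIT3 was at 26.3 and 135 UMIs per 1000000 UMIs outside MT- genes, a ratio of 5.14. The ATF4 pathway regulators summed to 868 and 1451 on that scale, a ratio of 1.67. These were picked out because they lie in barcodes that no comparison used and were above the level in the DMSO barcodes, and with 1 library a group they have no test.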

How the results depend on the processing

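The count of genes at least 2-fold higher (13) moved beyond 1.5 times only with a floor of 50 CPM (3) or at 1.5-fold (52). The count lower (4) was less stable, at 10 in cells with 8000 to under 12000 UMIs, 27 with 4000 to under 8000, 0 with 16000 to under 32000, 2 in all cells, 7 with a floor of 5 CPM, 1 with 50 CPM and 109 at 1.5-fold. Of 377 list medians under alternatives, 21 left the 95% binomial interval of the reported median over its members, and among these NRF2 targets crossed equality. In cells with 4000 to under 8000 UMIs, heat shock chaperones were at -0.48, sterol genes -0.16, lysine demethylases -0.25, S phase genes -0.26, matrix genes -0.22, proteasome subunits -0.0494, the respiratory chain 0.23 and ribosomal proteins 0.23. G2 and mitosis genes were at -0.27 with 16000 to under 32000 UMIs and -0.26 in all cells. With MT- and ribosomal protein genes left out of the total, they were at -0.27, NRF2 targets 0.0066, HIF targets 0.12, contractile genes -0.0642, proteasome subunits -0.0503 and ribosomal proteins 0.20. With median-ratio scaling they were at -0.27, NRF2 targets 0.0044, contractile genes -0.068, proteasome subunits -0.0572 and ribosomal proteins 0.20. Leaving out the tenth of cells with the highest doublet scores, an alternative chosen after seeing the data, gave 13 higher and 5 lower. Leaving out doublets called by Scrublet gave no value.

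In bulk, 1 gene was higher, 0 without the filter on low values, 2 with the P3FI-90 and DMSO libraries alone, 3 with the replicate block, 0 with median-ratio scaling and 0 to 1 with 1 library left out. TRIB3 lost its call without the filter, with median-ratio scaling and without any 1 library but P3FI-90 replicate 1, at limma adjusted p of 0.0516 to 0.185. Without DMSO replicate 1 a gene was still called, and it was not TRIB3. DDIT3 (log2 fold change 3.04) and CXCL8 gained one under the replicate block, which changed no other named call. Causes were not tested. Depth limits what can be seen, as genes under 10 CPM had few UMIs, and 1 library a group leaves library and treatment impossible to tell apart.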

Other observations

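Of the 52 genes at least 1.5-fold higher in single cells, 27 belonged to none of the 30 lists, and of the 109 lower, 88 did not. The genes named next were chosen after their values were seen. Among abundant genes on the high side were RBM39, a splicing factor, at 278 CPM in DMSO and 458 CPM in P3FI-90 cells, and RSRC2, at 104 and 190 CPM. The long non-coding RNA NEAT1, the scaffold of paraspeckles in which SFPQ resides, was at 198 and 307 CPM, and MEG3 at 163 and 111 CPM. In the bulk pairs at 24 h neither NEAT1 nor MEG3 differed in 1 direction in all 3. On the low side, the cyclin CCND1 was at 90.5 and 50.6 CPM, the intermediate filament gene NES at 674 and 397 CPM, and the proliferation marker MKI67 at 285 and 166 CPM.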
